A study of Mus musculus with 2 samples.

Results

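The windows around Rbm20, Rbm24 and Rbpms, genes for 3 RNA-binding proteins that act on splicing in heart muscle, held 28 of the 8849 peaks of a merged TBX5 ChIP-seq list from the adult mouse ventricle. A peak was counted where its summit, its highest point, lay in a window of the mouse build mm9. The windows ran from 53.70 to 53.98 Mb on chromosome 19 for Rbm20, from 46.44 to 46.60 Mb on chromosome 13 for Rbm24, and from 34.84 to 35.20 Mb on chromosome 8 for Rbpms with its upstream flank. The Rbm20 window held 19 peaks, the Rbm24 window 3 and the Rbpms window 6. The members were selected on summit position, and the loci were chosen by their TBX5 peaks in this same list, so peak numbers and heights are a description and no test was made on them.

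Chromatin came from the cardiac ventricles of 15-week-old wild-type C57BL/6 mice, with no treatment, and was fixed in 2% formaldehyde. The groups were TBX5 ChIP (antibody HPA008786, Sigma) and IgG ChIP (ChIP grade rb IgG, Millipore), and both shared strain, genotype, age and tissue. Each antibody had 2 biological replicates, per the design text, and the analysis used the 1 merged TBX5 list. No value of a single replicate and no IgG list was analysed here, so no replicate spread stands behind any value. The tissue was whole ventricle, and 1 peak list does not show in which of its cell types TBX5 was bound.

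TBX5 is a T-box transcription factor needed for heart development, and it stays expressed in adult cardiomyocytes. Alternative splicing sets which isoforms of sarcomere and calcium-handling proteins heart muscle makes. RBM20 binds the pre-mRNA of titin and represses the inclusion of its spring exons, and mutations in human RBM20 cause dilated cardiomyopathy. RBM24 is enriched in striated muscle, promotes the inclusion of muscle exons and is needed for sarcomere assembly in the mouse heart. RBPMS, also called hermes, has an RNA recognition motif and regulates splicing in cardiomyocytes and in smooth muscle.

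The files give peak positions on mm9 and no bases. Of the 3 members, 1 had a promoter in the RefSeq table of build GRCm38.p6. It is shown because a T-box factor was precipitated and the T-box core is AGGTGT. The 250 bases before the Rbm24 start, from the plus strand of GRCm38.p6 at chr13:46418050-46418299, read 5′ to 3′ with the core in capitals:
Rbm24: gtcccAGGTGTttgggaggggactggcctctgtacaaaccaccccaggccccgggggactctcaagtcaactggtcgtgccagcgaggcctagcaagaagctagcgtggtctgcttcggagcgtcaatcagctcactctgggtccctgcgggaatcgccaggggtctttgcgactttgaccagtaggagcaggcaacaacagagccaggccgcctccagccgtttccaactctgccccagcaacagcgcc
The letters AGGTGT occurred here once, on the plus strand, beginning 245 bases before the start. Searched on both strands (AGGTGT and ACACCT), they occurred in 11.8% of the 32851 promoters of that table over the same 250 bases. The longer AGGTGTGA, which contains the first, was not in this window and was in 1.12% of all promoters. The promoter's coordinates are of another build than the peaks, so no peak was placed on it, and a match of letters is not a bound site.

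The Rbm20 window held the most peaks of the 3, also per Mb of window. Its 19 peaks in 280 kb came to 67.9 peaks per Mb, which was 15.1 times the density of chromosome 19 as a whole (4.49 per Mb). The Rbm24 window had 18.8 peaks per Mb, 5.39 times the 3.48 per Mb of chromosome 13. The Rbpms window had 16.7 peaks per Mb, 3.99 times the 4.18 per Mb of chromosome 8. The 19 autosomes averaged 3.74 ± 0.548 peaks per Mb (SD over chromosomes, n = 19), counted from their first to their last peak. A density per window depends on where the window was drawn. Counted only between the first and last summit, the order was another, with 25.8 peaks per 100 kb at Rbm24, 11.2 at Rbm20 and 8.93 at Rbpms. This measure counts both end peaks and so runs high where peaks are few, as with the 3 at Rbm24. The median distance between summits was 5.81 kb at Rbm24, 6.38 kb at Rbm20 and 14.9 kb at Rbpms.

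Set beside windows of the same width laid end to end over the autosomes, the Rbm20 window stood at the far end and the others did not. A count of 19 or more was reached in 1 of 8779 windows of 280 kb (0.0114%), which held 23 peaks, and in 0 of 8770 with the windows moved by 0.5 of their width. A count of 3 or more was reached in 1016 of 15359 windows of 160 kb (6.62%). A count of 6 or more was reached in 343 of 6830 windows of 360 kb (5.02%). In all 3 tilings the median window held 0 peaks. The laid windows have fixed edges and can cut a crowded region in parts, while the 3 gene windows were drawn around genes whose peaks were known, so these shares describe the windows and are no test.

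**Figure D1:**
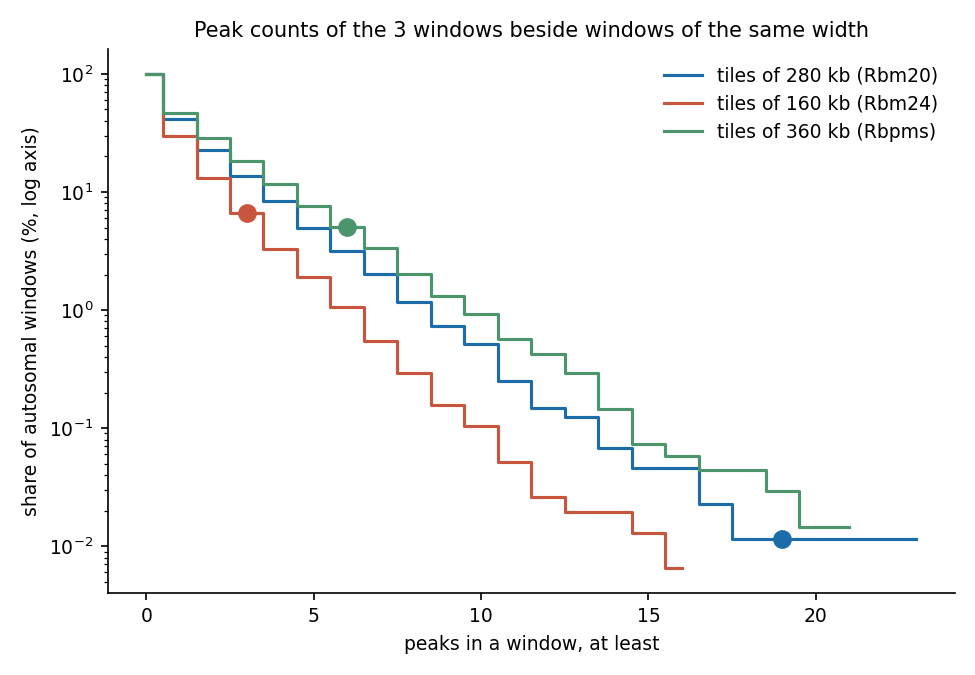
Share of autosomal windows (%, log axis) that hold at least the number of peaks on the x axis, for windows of 280, 160 and 360 kb laid end to end. Large points mark the Rbm20, Rbm24 and Rbpms windows at 19, 3 and 6 peaks; the Rbm20 point lies at 0.0114%, the Rbm24 point at 6.62% and the Rbpms point at 5.02%.

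The median heights of the windows lay close together, and their order depended on the processing. Each peak has a fold, the authors' enrichment of the TBX5 pileup at the summit over the local control level. The median fold was 4.76 in the Rbm20 window, 4.59 in the Rbm24 window and 5.00 in the Rbpms window, against 5.52 over all 8849 peaks. In each window the median thus lay below that of the list. With peaks within 1 kb merged the medians were 5.10 at Rbm20, 4.59 at Rbm24 and 5.05 at Rbpms. Merging thus turned the order of Rbm20 and Rbpms. Among peaks at or above the list's median score the medians were 7.46 over 8 peaks at Rbm20, 9.58 for 1 peak at Rbm24 and 21.7 over 2 peaks at Rbpms. Folds of at least 10 were seen in 2 peaks at Rbm20, 0 at Rbm24 and 1 at Rbpms, against 13.7% of all peaks. The highest-scoring 25.1% of the list (score is the caller's rank value, 10 times −log10 q) took in 6 of 19 peaks at Rbm20, 1 of 3 at Rbm24 and 2 of 6 at Rbpms. These counts are near those of the list or rest on 1 or 2 peaks, and nothing is read from them.

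**Figure D2:**
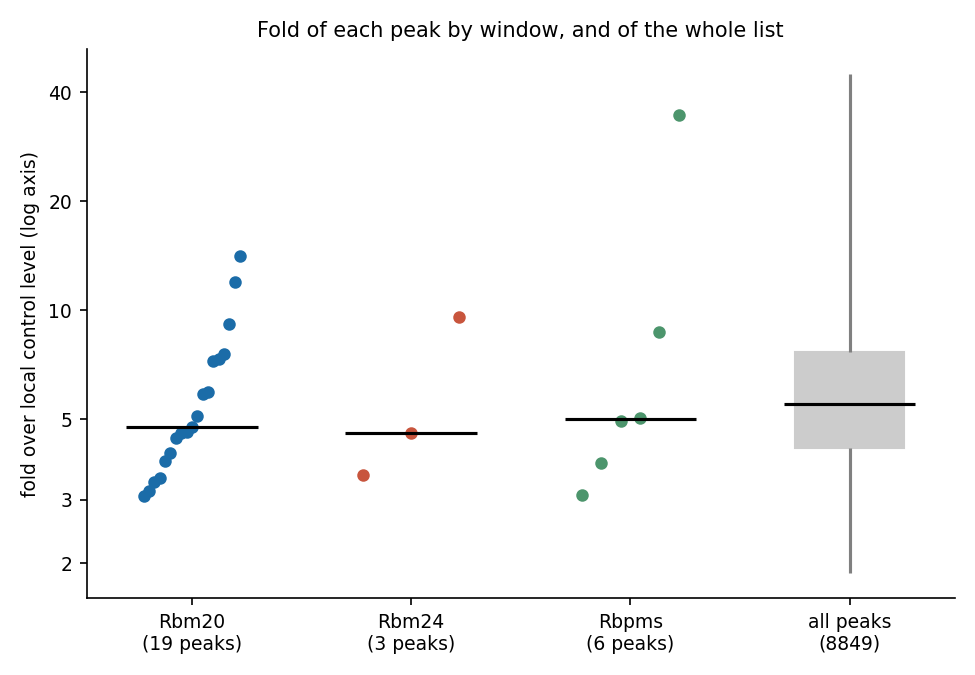
Fold over the local control level (log axis) of each peak in the Rbm20, Rbm24 and Rbpms windows (points; black lines, medians of 4.76, 4.59 and 5.00). The box at the right gives the quartiles and the median of 5.52 for all 8849 peaks, with a line over their range; 1 Rbpms peak stands apart at a fold of 34.7.

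Rbm20 carried a long array of 19 peaks. The 6 called stronger here are those in the highest-scoring 25.1% of the list, and they made up 31.6% of the window's peaks. Their median fold was 8.38, against 10.4 for all peaks in that part of the list. For the other 13 it was 4.45, against 4.79 for all peaks below that part. Both medians lay below those of the same parts of the list, and the share of stronger peaks rests on 6 peaks. Nothing is read from these values. The locus was chosen by its peaks, so their number is a description. The summits spread over 170 kb of the 280 kb window, with a median of 6.38 kb from one summit to the next (0.249 to 35.467 kb). The 5.81 kb among the 3 Rbm24 summits is only the midpoint of 2.975 and 8.637 kb, so the medians are not compared. In the GRCm38.p6 gene table Rbm20 is 206 kb long, lies between the coding genes Smc3 and Gm30990, and encloses 5 long noncoding RNA entries. No mm9 annotation was used here, so a peak was not assigned to an exon, an intron or one of these genes.

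The peak of the Rbm20 window with the highest score lay on chromosome 19 from 53785433 to 53785735. At its summit 75 TBX5 fragments (exact 95% Poisson interval 59.0 to 94.0) stood above a control level of 4 fragments per position, giving a fold of 12.0. Fragments and control levels were computed from the authors' fold and −log10 p, and the intervals cover counting error only. Fragments are given before scaling, so the fold is not their plain ratio to the control level. It uses the fragments times 0.787, with 1 added to that product and to the control level. The peak with the highest fold, 14.2, lay 5.51 kb away from 53790807 to 53791350. It rested on fewer fragments, 55 (41.4 to 71.6), above a lower control level of 2.13, and with 544 bp it was the widest of the window. With the control level held fixed, counting error put its fold between 10.7 and 18.3 and that of the first peak between 9.48 and 15.0. These ranges overlap, so the order of the 2 peaks by fold is not settled.

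The other 4 of the stronger Rbm20 peaks lay further towards higher coordinates. The peak from 53804245 to 53804701 had 54 fragments (40.6 to 70.5) above a control level of 5, giving a fold of 7.25. A peak from 53876310 to 53876696 had 47 fragments (34.5 to 62.5) above a level of 4, giving a fold of 7.59. The window's last 3 peaks included the remaining pair. The first of that pair, from 53898434 to 53898734, had 57 fragments (43.2 to 73.9) above a level of 4, giving a fold of 9.17. The second, from 53904919 to 53905204, had 64 fragments (49.3 to 81.7) above a level of 6, giving a fold of 7.33. All 6 stronger peaks lay at 286 to 544 bp in width, and the fragment intervals of these last 4 overlapped one another.

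The remaining 13 Rbm20 peaks were low. Their folds ran from 3.07 to 5.95 and their summits held 18 to 35 fragments over control levels of 1.59 to 7. Between the lowest of the 6 stronger peaks (fold 7.25) and the highest of these (5.95) no Rbm20 peak was found. With the control level held fixed, counting error put these folds at 5.48 to 9.40 and 4.07 to 8.44. These ranges overlap and the parts were split by score, so the gap does not settle that the peaks form separate classes. The peak with the lowest score, from 53832063 to 53832273, had 20 fragments (12.2 to 30.9) above a level of 4, giving a fold of 3.35 and a −log10 q of 2.19. It ranked 8537 of 8849 by score. The lowest fold, 3.07, belonged to a peak from 53867605 to 53868075 with 30 fragments (20.2 to 42.8) above a control level of 7, the highest control level of the window. That peak was wide for its height, 471 bp, against a median of 165 bp among the 13.

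The Rbm20 peaks fell into 5 groups when peaks with at most 12500 bp between their edges were joined. From low to high coordinates the groups held 3, 7, 4, 2 and 3 peaks, so all 19 had a neighbour, against 36.6% of peaks in the list (chromosomes 1 to 19 with X). Joined at 5 kb, 10 of the 19 had a neighbour, against 23.9% of the list. Among peaks at or above the median score, 5 of 8 had one, against 24.8%. Groups of 3 or more took in 17 of the 19 at 12500 bp, against 15.6% of the list. The locus was chosen by its peaks, so these shares restate how crowded the window is and are no separate result. The group of 7 ran from 53771881 to 53804701 (32.8 kb) and held both peaks with a fold above 10. Groups of 7 or more peaks numbered 15 in the list, of 1300 groups of 2 or more. The group of 4, from 53826265 to 53832501, had no peak above a fold of 4.58. The widest empty stretch between Rbm20 peaks was 35.1 kb, just above the group of 4.

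**Figure D3:**
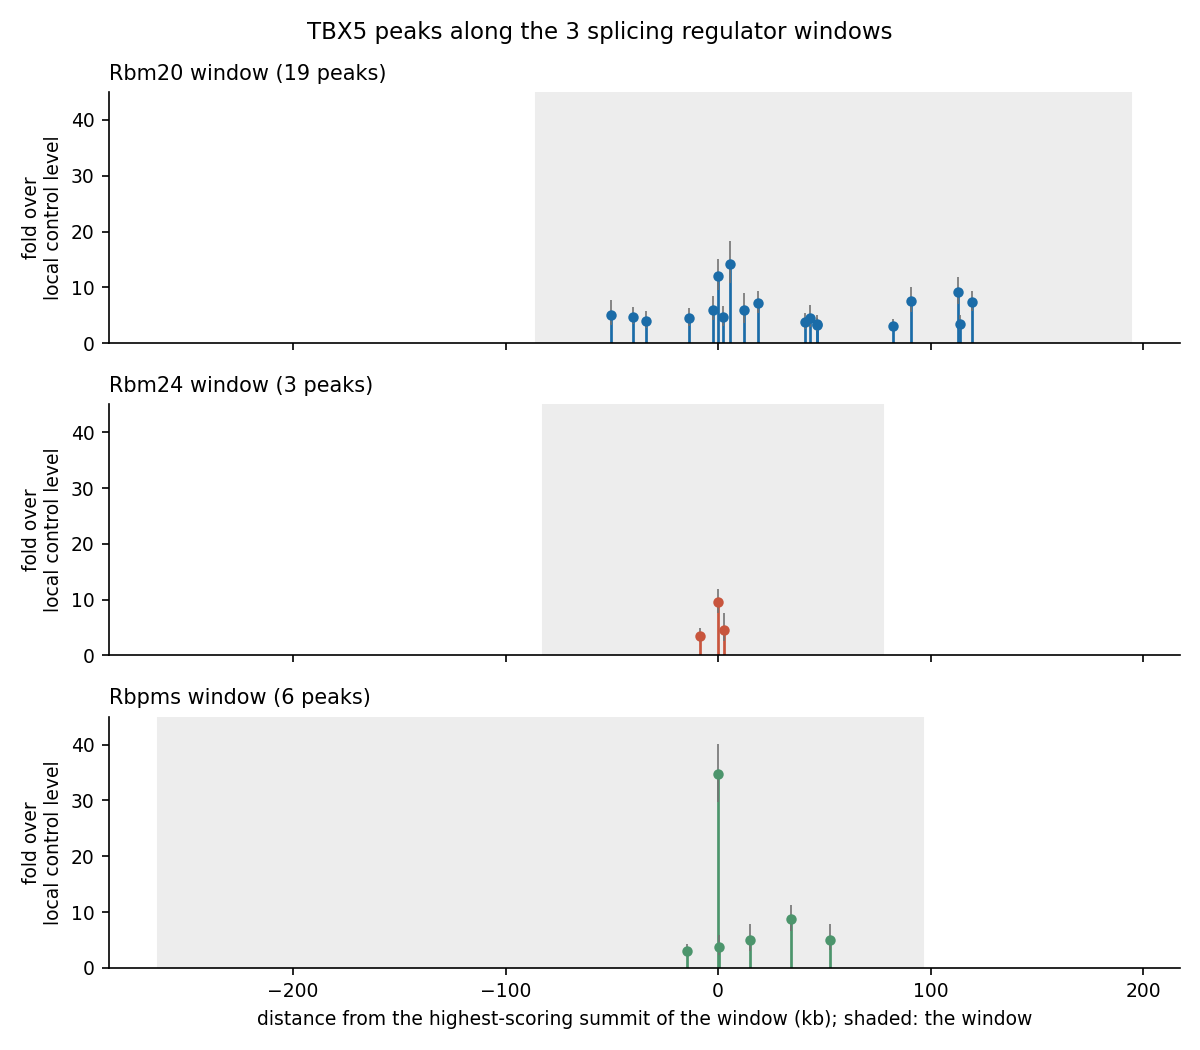
Fold over the local control level of each TBX5 peak along the Rbm20, Rbm24 and Rbpms windows, by distance in kb from the highest-scoring summit of the window; shading marks the window. Points with stems are peaks, and grey bars give the fold over the 95% counting interval of the fragments with the control level held fixed. The 19 Rbm20 peaks are spread over 170 kb, the 3 Rbm24 peaks over 11.6 kb, and the 6 Rbpms peaks sit in the upper part of their window around 1 tall peak with a fold of 34.7.

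Rbm24 had a single strong peak with a weak one on either side. The strong peak, on chromosome 13 from 46522237 to 46522612, held 84 fragments (67.0 to 104) above a control level of 6, giving a fold of 9.58. It ranked 673 of 8849 by score. The peak below it, from 46513707 to 46513836, had 30 fragments (20.2 to 42.8) above the same control level of 6, giving a fold of 3.51. The peak above it, from 46525320 to 46525572, had 12 fragments (6.2 to 21.0) above a control level of 1.28, giving a fold of 4.59. The higher fold of that peak rested on the fewest fragments of all 28 peaks, and its −log10 q of 2.79 was the lowest of the window. The strong peak's fragment interval lay above those of its neighbours.

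The 3 Rbm24 peaks formed 1 group of 11.9 kb. In the GRCm38.p6 table Rbm24 is 12998 bp long, the shortest of the 3 genes, and lies between the coding genes Stmnd1 and Cap2. Below the group the window was empty over 73.8 kb and above it over 74.6 kb, measured to the nearest summits.

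Rbpms differed from both by 1 tall peak. On chromosome 8 from 35103402 to 35103904, 175 fragments (150 to 203) stood above a control level of 3, giving a fold of 34.7. This peak was 6th of 8849 by score, 13th by fold and 27th by fragments. Counting error with the control level held fixed put its fold between 29.8 and 40.2, above the ranges of all other peaks of the 3 windows. It was 503 bp wide, with the summit at 54.1% of the width. A second peak began 97 bp beyond its end, from 35104002 to 35104269, with 18 fragments (10.7 to 28.4) above a control level of 3, giving a fold of 3.79. Peaks this close may be parts of 1 enriched region, and merged they count as 1.

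The next Rbpms peak in height was far lower. It lay 34.5 kb above the tall summit, from 35138028 to 35138285, with 54 fragments (40.6 to 70.5) above a control level of 4, giving a fold of 8.70. The tall peak's fold was 3.99 times this one, whereas the highest fold was 2.09 times the second at Rbm24 and 1.18 times the second at Rbm20. Such a ratio tends to fall as peaks are added, so it is not comparable between windows with unlike numbers of peaks. The other 3 Rbpms peaks were weak. The peak from 35156224 to 35156441 had 18 fragments (10.7 to 28.4) above a level of 2, giving a fold of 5.05. Another, from 35118802 to 35119017, had 16 (9.15 to 26.0) above a level of 1.75, giving a fold of 4.94. The lowest peak in position, from 35089101 to 35089271, had 34 fragments (23.5 to 47.5) above a control level of 8, the highest control level of the 28 peaks, and a fold of 3.08.

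All 6 Rbpms peaks lay in the upper part of the window. The first 249 kb held no summit, and the 6 summits then spread over 67.2 kb. In the GRCm38.p6 table Rbpms is 147 kb long and lies between the coding genes Gtf2e2 and Dctn6. Without an mm9 annotation it was not settled which peaks, if any, lie within the gene and which in its flank. Apart from the tall peak and the one beside it, no Rbpms peak had a neighbour within 12500 bp. The other gaps between Rbpms peaks were 14130 to 19010 bp, past that distance. Joined at 25 kb, all 6 had a neighbour, against 48.4% of the list, and with peaks within 1 kb merged 0 did, against 29.5%.

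The locus with the tallest peak was thus not the one with the most. By fold the tallest Rbpms peak was 2.45 times the tallest of Rbm20, and the tallest of Rbm20 was 1.48 times that of Rbm24. By fragments the Rbpms peak (175) also lay above the others, with an interval clear of the 84 at Rbm24 and the 75 at Rbm20. The Rbm24 and Rbm20 maxima had overlapping intervals (67.0 to 104 and 59.0 to 94.0), and by fragments Rbm24 was the higher. The control level was 6 at the Rbm24 summit, against 4 and 2.13 at the 2 tallest Rbm20 peaks. With control levels held fixed, counting error put the Rbm24 fold between 7.67 and 11.8. That range overlapped 9.48 to 15.0 and 10.7 to 18.3 at those Rbm20 peaks. The order of Rbm20 and Rbm24 is therefore settled neither by fold nor by fragments. It also sets the highest of 19 peaks beside the highest of 3.

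Fragments were also summed over the summits of each window. The share of the richest peak in such a sum falls as peaks are added, so the shares are not comparable between windows with 19, 3 and 6 peaks. Summed over summits, the Rbm20 window held 687 fragments, of which its richest peak gave 10.9%. The Rbm24 window held 126, of which the strong peak gave 66.7%. The Rbpms window held 315, of which the tall peak gave 55.6%. Called peaks covered 4.84 kb at Rbm20, 0.759 kb at Rbm24 and 1.63 kb at Rbpms. The mean per summit was 36.2 fragments at Rbm20, 42.0 at Rbm24 and 52.5 at Rbpms, so the larger sum at Rbm20 came with more peaks and not with higher ones.

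Control levels at the 28 peaks ran from 1.28 to 8. The median was 4 in the Rbm20 window, 6 in the Rbm24 window and 3 in the Rbpms window, against 3.5 over all peaks. Levels of at least 5 were seen at 7 of 19 Rbm20 peaks, 2 of 3 Rbm24 peaks and 1 of 6 Rbpms peaks, against 35.7% of all peaks. None of the 28 summits was at the genome background of 1.18, the lowest control level in the list, where 759 of the 8849 peaks lay. A peak enters the list only where its fragments pass a threshold over its own control level, so weak peaks over high levels have more fragments by construction.

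**Figure D4:**
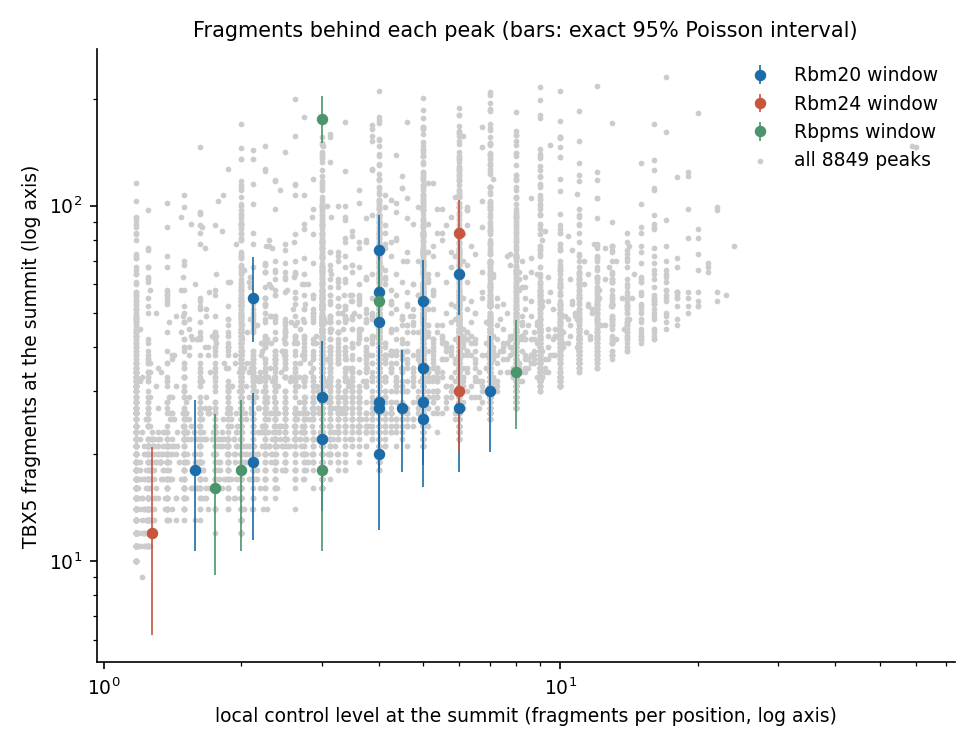
TBX5 fragments at the summit against the local control level (both log axes) for the peaks of the Rbm20, Rbm24 and Rbpms windows (coloured points with exact 95% Poisson intervals) and for all 8849 peaks (grey). The Rbpms peak at 175 fragments above a control level of 3 stands above the other 27, whose fragments run from 12 to 84. Fragments are shown before scaling, so the 2 axes are not on the same scale.

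A summit outside lay nearer to the upper edge of the Rbm24 window than to any other edge of the 3 windows. Inside that edge the Rbm24 window was empty over 74.6 kb. Below the Rbm20 window the nearest summit was 104 kb from the edge (fold 7.81) and above it 38.7 kb. That peak above, from 54018537 to 54018728, had 77 fragments (60.8 to 96.2), more than any Rbm20 peak, but above a control level of 24 and thus a fold of only 2.46. Around Rbm24 the nearest summits outside were 106 kb below (fold 5.69) and 11.7 kb above (fold 4.19). Around Rbpms they were 2608 kb below (fold 4.31) and 311 kb above (fold 4.38). The Rbpms peaks therefore stood alone over a long stretch, while a weak peak lay close above the Rbm24 window. With that window 20 kb wider on each side, its count rose from 3 to 4.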

How the data were processed

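The members and windows were chosen with earlier results of these data known. Tools named in the submitters' processing notes were MACS2 (2.1.1.20160309.0), Bowtie2 (2.2.6.2) and FastQC (0.10.0), with build mm9. The sources used here do not give caller settings, the control library or how replicates were merged. Each peak of the deposited list has a score, a fold (ratio to the local control), −log10 q and −log10 p. The authors' score was the whole part of 10 times −log10 q in 8846 of 8849 peaks, and the lowest −log10 q was 1.30.

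Fragments were computed from fold = (scaled TBX5 pileup + 1) / (control level + 1) together with the Poisson p of that pileup, as MACS2 computes them. A scale of 0.787 gave a whole number of fragments for all 8849 peaks, with differences in −log10 p up to 0.000117 (tolerance 0.0005). A second solution existed for 39 peaks, 1 of them a member (the Rbpms peak next to the tall one), and the closer was taken. On simulated data (5461 and 5604 peaks) 100% of fragment numbers came back right, which covers the solving step only. How the deposited folds and p were made was not tested by it. Without molecular identifiers, reads are not independent molecules, and intervals cover counting error only. Total reads per library are unknown here. The text names the 3 genes and gives the 5 highest-scoring peaks and the lowest of each window in full, with other peaks in ranges; the sixth strong Rbm20 peak and the widest weak one were added after their values were seen. The planned count of peaks at other splicing regulators needs an mm9 annotation and was not run. The protein comparison was not run. Software was matplotlib 3.10.9, pandas 2.3.3, scipy 1.17.1, numpy 2.4.6 and Python 3.11.15.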

Additional observations from a re-analysis of the deposited data

How the results depend on the processing

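Of 55 alternatives to 15 results, 36 left the value within a factor of 1.5, 18 moved it further and 1 turned an order. Keeping only peaks at or above the median score left 8 peaks at Rbm20 (median fold 7.46, 5 with a neighbour), 1 at Rbm24 (fold 9.58, 0 with a neighbour) and 2 at Rbpms (median fold 21.7, 0 with a neighbour). With stitching at 5 kb, 10 Rbm20 peaks had a neighbour. At 25 kb all 6 Rbpms peaks had one, and with peaks within 1 kb merged 0 did. Merging also put the median fold of Rbm20 (5.10) above that of Rbpms (5.05), an order not among the 15 results. With tiles moved by 0.5 of their width, 0% of windows held as many peaks as Rbm20. Over windows with at least 1 peak, a setting chosen after the data were seen, the shares were 0.0277% for Rbm20, 22.3% for Rbm24 and 10.7% for Rbpms. The tallest Rbpms peak was 3.96 times that of Rbm20 by score and 3.72 times by −log10 p. By fragments the tallest Rbm20 peak was 0.893 times that of Rbm24, against 1.48 by fold, with overlapping counting ranges on both measures. Moves under a stricter score, stitching or merging follow from fewer or differently joined peaks. No paired analysis was possible because only 1 merged list was used, and for the same reason no replicate could be left out. No peak number was missing within the windows. Sites below the caller's threshold are not in the list.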

Other observations

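The surroundings of the 3 windows differed in peak number. The 500 kb below and the 500 kb above each window were counted together. They held 13 peaks for the Rbm24 window, 6 for the Rbm20 window and 5 for the Rbpms window. The 250 kb below and above the Rbpms window held 0. The sides were uneven. The second summit below the Rbm24 window was 721 kb away, and the second above the Rbm20 window 1285 kb. The first below the Rbpms window was 2608 kb away. Of the 24 peaks on chromosome 19 between 53 and 54 Mb, 19 lay in the Rbm20 window.

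Pairs of peaks with under 1 kb between them occurred at Rbm20 and Rbpms. The Rbm20 peaks from 53832063 to 53832273 and from 53832360 to 53832501 were 86 bp apart, with folds of 3.35 and 3.18, so neither stood above the other. The Rbm20 peaks from 53898434 to 53898734 and from 53899361 to 53899485 were 626 bp apart, with folds of 9.17 and 3.44, a strong peak with a weak one beside it as at the tall Rbpms peak.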
